A study of Mus musculus with 19 samples.

Results

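The Slc25 genes encode the mitochondrial carrier family, the proteins that pass nucleotides, phosphate, carboxylates, amino acids, carnitine esters, cofactors and ions across the mitochondrial membranes. They were taken as every gene on the array whose symbol is Slc25a followed by a number, on a probe set that lists 1 gene. This gave 46 genes of the 22180 tested, each with 1 probe set. Genes of the carrier fold under other symbols, such as Ucp1 and Ucp3, are outside this rule. Transcripts were measured on Affymetrix arrays in 19 mouse hearts, 1 array per heart. The hearts came from wild-type C57Bl6J mice at ZT0 (lights on, n = 7), from wild-type C57Bl6J mice at ZT12 (lights off, n = 7) and from mice labelled Reverb alpha KO at ZT12 (n = 5), for which the labels give no strain. Rev-erb alpha is a nuclear receptor that represses transcription in the circadian clock. Every heart, controls included, was perfused by the Langendorff method through 20 min of stabilisation, 20 min of ischemia without flow and 20 min of reperfusion, so each value describes a reperfused heart. The labels give no age, sex, batch or pairing of hearts, and neither a heart without ischemia nor a knockout at ZT0 is among the samples. They call the replicates biological, without saying how the mice were housed or bred.

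Most members of the family share a fold of repeated pairs of membrane helices and exchange one solute for another across the inner mitochondrial membrane. In heart muscle, which draws most of its ATP from oxidation of fatty acids and other fuels, the ADP/ATP carrier exports ATP to the contractile machinery, the phosphate carrier supplies the substrate for its synthesis and the carnitine/acylcarnitine carrier admits fatty acids for beta-oxidation. Carriers for pyrimidine nucleotides and coenzyme A supply mitochondrial nucleic acid synthesis and metabolism.

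Values are log2 array intensities, and calls were made where the Benjamini-Hochberg adjusted p of limma, a linear model fitted to all genes, was under 0.05. Array medians lay between 3.25 and 3.32 and the correlations between arrays between 0.972 and 0.985. Of the 46 genes, 10 had a mean under the median of all values, 3.27, where a change is hard to see: Slc25a2, a14, a18, a21, a31, a41, a43, a48, a53 and a54. The clock gene Arntl lay between 7.18 and 7.36 in the ZT0 hearts, between 3.72 and 4.31 in wild-type hearts at ZT12 and between 6.28 and 6.77 in the knockout, so the 3 groups did not overlap. Nr1d1, which encodes Rev-erb alpha, lay between 6.46 and 7.28 in wild-type and between 6.30 and 6.51 in knockout hearts at ZT12. The deleted part of the gene is not given in the sources used here, so its probe set does not check the genotype label. All 10 cardiomyocyte markers were measured and their mean was 10.59 to 10.99 in every heart. Markers of atrial muscle varied between hearts, with a mean over 9 of 10 listed genes of 7.12 to 8.22 at ZT0, 5.71 to 8.19 in wild type at ZT12 and 5.23 to 8.10 in the knockout. Of these 9 atrial genes and of 9 adipocyte genes described with Slc25a1, 0 had a mean under the median of all values. The 4 lowest atrial means were those of wild-type ZT12 replicate 5 at 5.71 and knockout replicates 2, 4 and 5 at 5.35, 5.56 and 5.23.

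4 genes of the family changed in at least 1 comparison: Slc25a33 between the times of day, Slc25a34 between the genotypes, and Slc25a34, Slc25a20 and Slc25a16 between the knockout at ZT12 and wild type at ZT0. The promoter letters of Slc25a33 and Slc25a34, the genes called between the times and between the genotypes, are shown here. They are the 250 bases before the annotated start, 5′ to 3′ on the strand of the gene, from RefSeq on GRCm38.p6. Slc25a33 lies on the minus strand at chr4:149774268-149774517, with the E-box CACGTG in capitals. Slc25a34 lies on the minus strand at chr4:141623835-141624084, with TGACCT in capitals, the opposite-strand reading of AGGTCA, the core of the sites bound by Rev-erb and ROR receptors.
Slc25a33: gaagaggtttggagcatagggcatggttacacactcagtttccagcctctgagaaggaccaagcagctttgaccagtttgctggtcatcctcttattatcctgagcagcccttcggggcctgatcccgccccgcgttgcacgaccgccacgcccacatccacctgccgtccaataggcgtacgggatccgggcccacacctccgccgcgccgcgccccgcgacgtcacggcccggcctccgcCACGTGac
Slc25a34: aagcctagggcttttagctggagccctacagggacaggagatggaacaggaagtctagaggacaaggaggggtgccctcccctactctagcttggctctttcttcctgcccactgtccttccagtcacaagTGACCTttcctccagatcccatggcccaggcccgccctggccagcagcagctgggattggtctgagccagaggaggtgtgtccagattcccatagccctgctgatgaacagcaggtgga
The E-box, the sequence bound by CLOCK and BMAL1, ended 2 bases before the start of Slc25a33, and TGACCT ended 113 bases before that of Slc25a34. A match is a description of these letters and not a measured binding site. Both strands were searched, and CACGTG reads the same on each. CACGTG was in 6.02% of 32851 mouse promoter windows of the same length, AGGTCA in 14.02%, and the D-box TTATGTAA or TTACGTAA in 0.932%. RefSeq promoters were matched for 36 of the 46 carrier genes, which have 46 windows. CACGTG was in 8 of these windows, 17.4%, from 7 genes: Slc25a1, a13, a14, a15, a31, a33 and a36. Of these 7, only Slc25a33 was called between the times of day, and their median difference was 0.06 against -0.04 for the matched genes without it. AGGTCA was in 4 windows, 8.70%, those of Slc25a34, a39, a45 and a47. Their differences between genotypes were 0.48, 0.27, -0.10 and 0.23, with a median of 0.25 against 0.01 without it. Of these 4, only Slc25a34 was called. Each set holds the gene already called in its comparison, so these medians do not test the motifs. The D-box was in 0 windows of the family, and the windows of Slc25a20 and Slc25a16 held none of the 3 motifs.

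The carriers were first compared between the times of day in wild-type hearts. Slc25a33, a carrier of pyrimidine nucleotides, was higher at ZT12, and the other 45 genes were not called. Higher calls were made for 0.645% of all genes and lower calls for 0.482%, against 1 and 0 of the 46 carriers. The family's differences ran from -0.40 to 0.82 with a median of -0.03, beside -0.0035 over all genes. Differences were above 0 for 17 of the 46 carriers (36.96%) and for 48.8% of all genes. At an unadjusted p under 0.05 there were 8 carriers, 4 in each direction (17.4%, against 11.5% of all genes). The median SE of a carrier's difference was 0.087.

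In wild type at ZT0, Slc25a33 had its lowest value at 5.58, its median at 6.03 and its highest at 6.51. At ZT12 in wild type the corresponding values were 6.63, 6.85 and 7.19, so every ZT12 heart lay above every ZT0 heart. It was the only carrier whose wild-type groups did not overlap, and 0.902% of all genes did not overlap either. The mean rose from 6.05 ± 0.31 to 6.87 ± 0.18 (SD, n = 7 each), 1.76-fold (log2 difference 0.82, SE 0.12, 95% interval 0.58 to 1.06; limma adjusted p = 0.000293). The difference was 0.74 to 0.90 with any 1 heart left out. The knockout hearts, at 6.55, 6.46, 6.27, 6.66 and 6.41, lay between the wild-type means, with 4 of the 5 below every wild-type ZT12 heart. Their mean of 6.47 ± 0.15 (SD, n = 5) differed by -0.40 from wild type at ZT12 (SE 0.13, interval -0.67 to -0.14; limma adjusted p = 0.185) and by 0.42 from ZT0 (SE 0.13; adjusted p = 0.123). Neither difference was called, apart from the one against ZT0 when wild-type ZT0 replicate 7 was left out (0.49; adjusted p = 0.0358). Slc25a36, the other carrier of pyrimidine nucleotides and also a gene with an E-box in its window, differed by -0.23 between the times (adjusted p = 0.308).

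**Figure D1:**
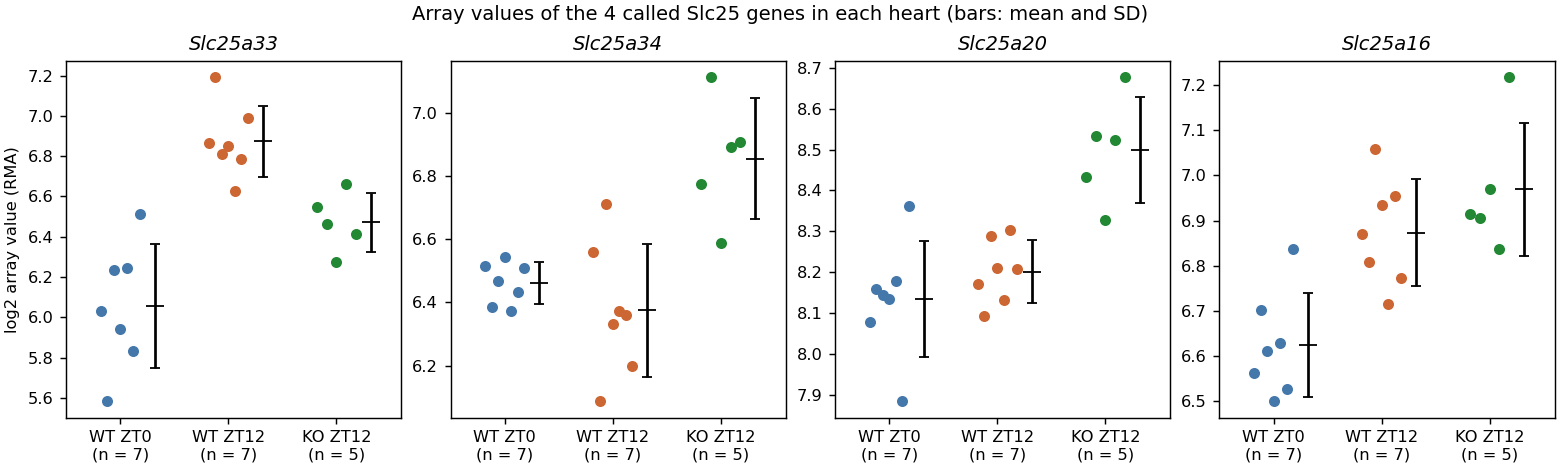
Log2 array value of Slc25a33, Slc25a34, Slc25a20 and Slc25a16 in each heart (points) with the mean and SD beside each group of 7, 7 and 5 hearts; each panel has its own vertical axis, which does not start at 0. Slc25a33 is highest in wild type at ZT12, at 6.63 to 7.19, and Slc25a34 is highest in the knockout, at 6.59 to 7.11.

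The comparison of knockout and wild-type hearts at ZT12 asked what differs between genotypes at one time of day. Slc25a34, a family member whose substrate is not settled, rose in the knockout, and the other 45 genes were not called. Higher calls were made for 0.442% of all genes and lower calls for 0.289%, against 1 and 0 carriers. Differences ran from -0.40 to 0.48, with a median of 0.03 beside -0.0030 over all genes, and 31 of 46 were above 0 (67.4%, against 49.0% of all genes). At an unadjusted p under 0.05 there were 9 carriers, 7 higher and 2 lower (19.6%, against 10.6% of all genes). Wild-type ZT12 hearts enter this comparison and the one between times of day.

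The wild-type hearts at ZT0 had Slc25a34 between 6.37 and 6.55 with a median of 6.47. Wild-type hearts at ZT12 were more spread, with a lowest value of 6.09, a median of 6.36 and a highest of 6.71. The knockout hearts were at 6.78, 7.11, 6.59, 6.89 and 6.91, so 5 of 5 lay above every ZT0 heart and 4 of 5 above every wild-type ZT12 heart. Only wild-type ZT12 replicate 3, at 6.71, was above knockout replicate 3. The mean rose from 6.37 ± 0.21 (SD, n = 7) to 6.86 ± 0.19 (SD, n = 5), 1.40-fold (log2 difference 0.48, SE 0.097, interval 0.28 to 0.68; limma adjusted p = 0.0196). It was also higher than at ZT0, by 1.31-fold (0.39, SE 0.097; adjusted p = 0.0448), while the wild-type groups differed by -0.09 (SE 0.089; adjusted p = 0.771). The genotype call was lost when knockout replicate 2, 4 or 5 was left out, at differences of 0.42, 0.47 and 0.47 (limma adjusted p = 0.0659, 0.0529 and 0.0569). A fit without the ZT0 hearts lost it too, at the same difference of 0.48 (adjusted p = 0.104). The call against ZT0 was lost when quantile normalization was repeated (difference 0.36, limma adjusted p = 0.0904).

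Slc25a34 tended to be higher where the atrial markers were lower, and their part in its rise was not tested. Of the 4 hearts lowest in atrial markers, 3 are knockouts. Slc25a34 was at 7.11, 6.89 and 6.91 in the 3 such knockout hearts, at 6.78 and 6.59 in the other 2, and at 6.37 in the wild-type heart, so 2 hearts remain in the knockout without them. Without those 4 hearts the difference was 0.31 (limma adjusted p = 0.540), and with the atrial mean as a covariate 0.39 (adjusted p = 0.0698). Across the 19 hearts, Pearson's r with the atrial mean was -0.64. It was -0.54 within wild type at ZT0 and -0.44 within wild type at ZT12 (n = 7 each).

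**Figure D2:**
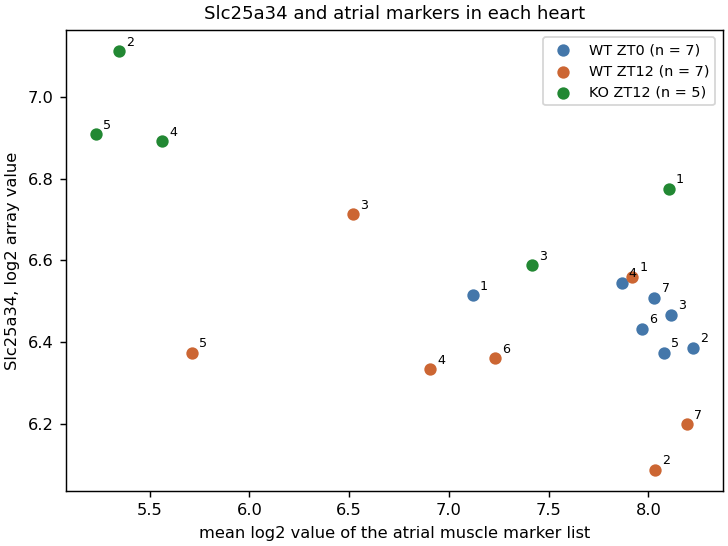
Slc25a34 (log2 array value, vertical) against the mean log2 value of 9 atrial marker genes (horizontal) in each of 19 hearts, with replicate numbers beside the points. Knockout replicates 2, 4 and 5 lie at atrial means of 5.23 to 5.56 and Slc25a34 of 6.89 to 7.11; the wild-type heart at 5.71 has 6.37.

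Slc25a20, the carnitine/acylcarnitine carrier of fatty acid entry, had its lowest value in wild type at ZT0 at 7.88, its median at 8.15 and its highest at 8.36. In wild type at ZT12 it was at 8.09, 8.21 and 8.30 in the same order. The knockout hearts were at 8.43, 8.53, 8.33, 8.52 and 8.68, all above every wild-type ZT12 heart. The knockout mean of 8.50 ± 0.13 (SD, n = 5) was 1.29-fold above that of 8.13 ± 0.14 at ZT0 (SD, n = 7; log2 difference 0.36, SE 0.077; limma adjusted p = 0.0170), and this comparison was called. Against wild type at ZT12 the difference was 0.30 (SE 0.077; adjusted p = 0.0816) and was not called. Only Slc25a20 and Slc25a23 did not overlap between the genotypes at ZT12, 2 of 46, while 1.4% of all genes did not. The cardiomyocyte marker mean was 10.59 to 10.72 at ZT0, 10.65 to 10.81 in wild type at ZT12 and 10.75 to 10.99 in the knockout. Its group means were 10.66, 10.70 and 10.85 in the same order. Over its 10 genes, the median difference was 0.03 between genotypes and 0.04 between the knockout and ZT0, with 0 called. Pearson's r of Slc25a20 with this mean was 0.80 over the 19 hearts (Spearman's rho 0.75), and 0.46 after the group means were removed. The part of this mean in Slc25a20 was not tested. Without the 4 hearts low in atrial markers, the difference from ZT0 was 0.25 (limma adjusted p = 0.490). Leaving out knockout replicate 4 or 5 alone gave differences of 0.36 and 0.32 (adjusted p = 0.0501 and 0.0611), and the call was lost.

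Slc25a16, a candidate carrier of coenzyme A, had its lowest values at ZT0, with a minimum of 6.50, a median of 6.61 and a maximum of 6.84. In wild type at ZT12 it lay between 6.71 and 7.06 with a median of 6.87. The knockout hearts, at 6.91, 6.91, 6.97, 6.84 and 7.22, overlapped the wild-type ZT12 hearts. Its mean of 6.97 ± 0.15 (SD, n = 5) was 1.27-fold above ZT0 at 6.62 ± 0.12 (SD, n = 7; difference 0.35, SE 0.080; limma adjusted p = 0.0310). The wild-type groups differed by 0.25 (SE 0.073; adjusted p = 0.118) and the genotypes at ZT12 by 0.10 (adjusted p = 0.729), neither called. The call against ZT0 was lost without wild-type ZT0 replicate 1, 3, 4, 5 or 6 or knockout replicate 3 or 5 (differences 0.28 to 0.35, adjusted p 0.0556 to 0.109). Of the 10 carriers of nucleotides, coenzymes and vitamins, 9 were not called between times, 10 not between genotypes and 9 not between the knockout and ZT0, the exceptions being Slc25a33 and Slc25a16.

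The knockout at ZT12 and wild type at ZT0 differ in both genotype and time, which cannot be told apart there. 3 carriers were higher and 0 lower, beside 0.965% of all genes higher and 0.379% lower. At an unadjusted p under 0.05 there were 8 carriers, 6 higher and 2 lower, beside 12.6% of all genes. Among the carriers, Slc25a34 alone did not overlap between these groups, which 1.72% of all genes did not. The median difference was 0.06 and the range -0.26 to 0.42, and 28 of 46 (60.9%) were above 0 against 47.8% of all genes. Without the 4 hearts low in atrial markers, the limma adjusted p was 0.663 for Slc25a34 (difference 0.22, against 0.39 with them) and 0.269 for Slc25a16 (difference 0.32, against 0.35 with them). The call of Slc25a34 was kept without knockout replicate 3 but lost without any other single heart of these 2 groups (differences 0.33 to 0.41, adjusted p 0.0542 to 0.122).

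**Figure D3:**
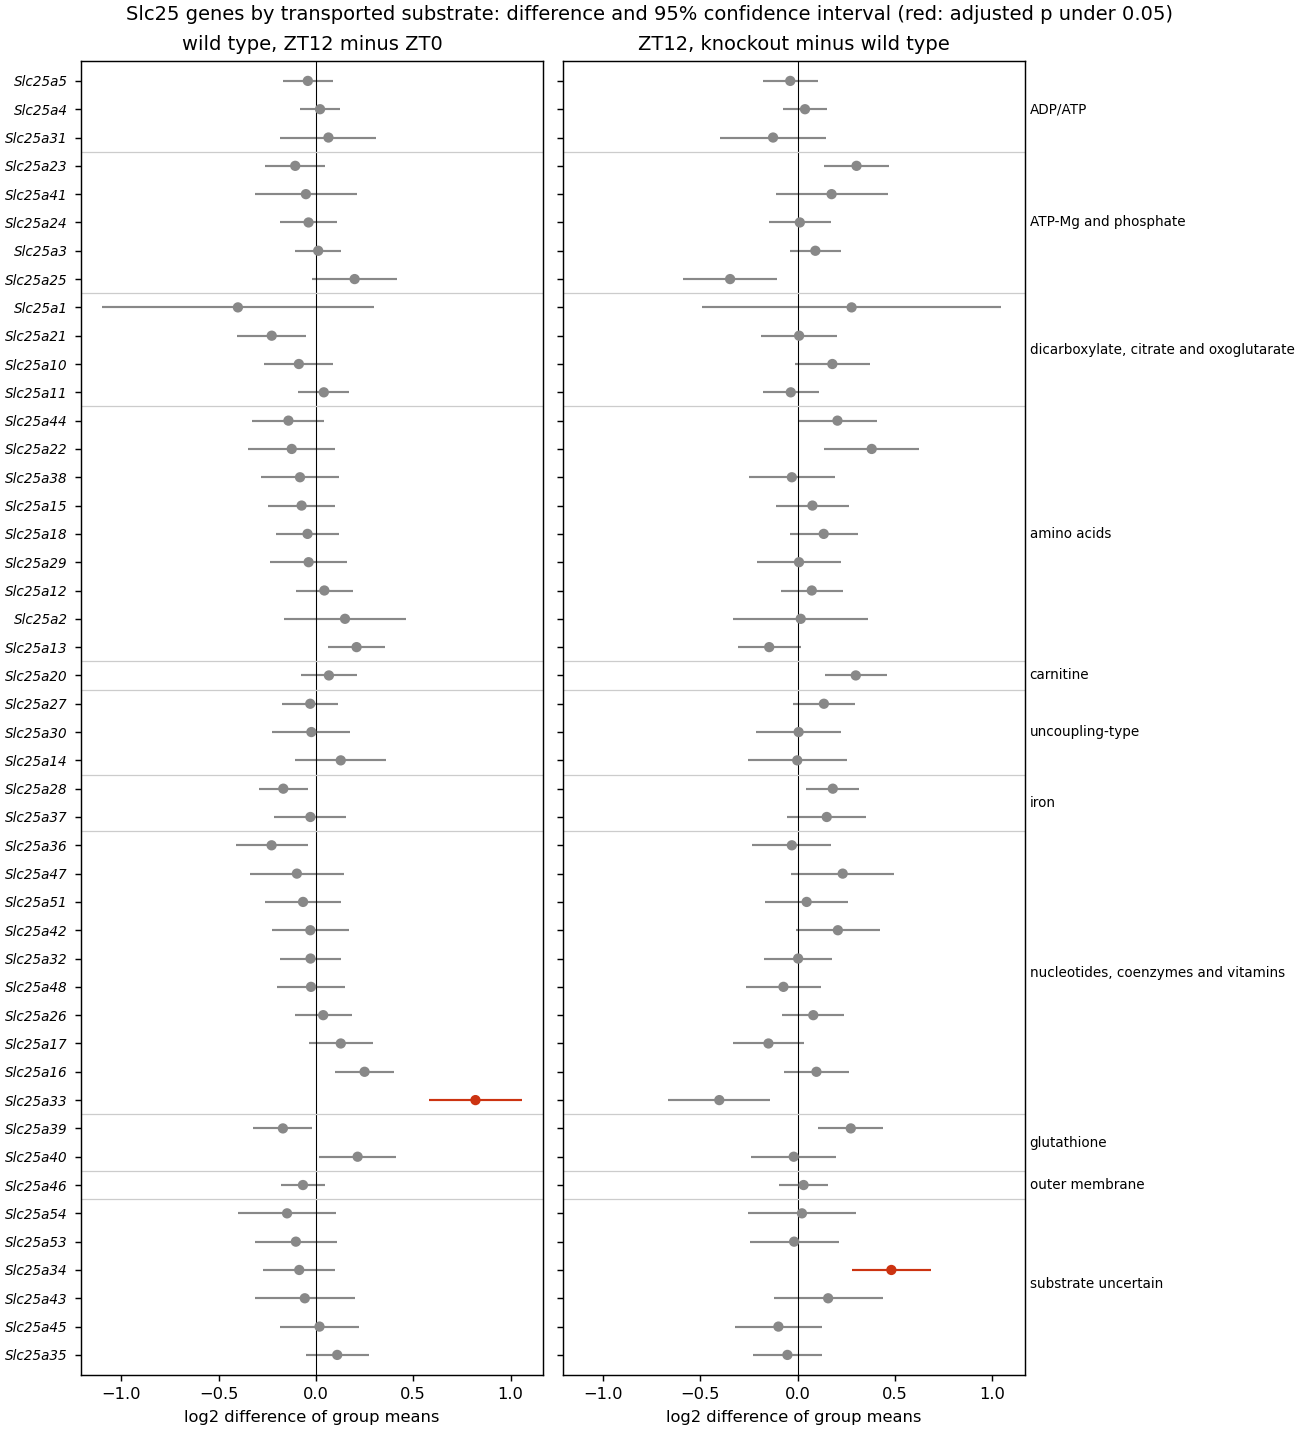
Log2 difference of group means for the 46 carriers (points) with 95% confidence intervals (lines), grouped by transported substrate; the left panel is wild type at ZT12 minus ZT0 and the right is knockout minus wild type at ZT12. Red marks an adjusted p under 0.05: Slc25a33 at 0.82 on the left and Slc25a34 at 0.48 on the right.

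The ADP/ATP carriers had 0 of 3 called. Calls were rare over all genes, at the shares given above, so 0 calls in a small substrate group say little about it. Slc25a4, the heart and muscle isoform, differed by 0.02 between times and 0.04 between genotypes, and Slc25a5 by -0.04 and -0.04. Slc25a31, mainly known from germ cells, was under the median of all values and differed by -0.13 between genotypes (limma adjusted p = 0.789). The 95% intervals of all 3 lay within -0.18 and 0.31 for time and within -0.40 and 0.15 for genotype. Slc25a4 and Slc25a5 have similar sequences, and whether their probes tell them apart was not tested.

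The phosphate and ATP-Mg carriers, which set the adenine nucleotide and phosphate pools of the matrix, had 0 of 5 called. Slc25a23, a calcium-regulated ATP-Mg/phosphate carrier, was at 6.89, 6.79, 6.99, 6.82 and 6.96 in the knockout, above every wild-type ZT12 heart, whose values ran from 6.40 to 6.76. The difference was 0.30 (SE 0.081; limma adjusted p = 0.09998). The ZT0 hearts reached from 6.46 to 6.86 and overlapped the knockout. Its relative Slc25a25 differed by 0.20 between times (adjusted p = 0.488) and by -0.35 between genotypes (SE 0.12; adjusted p = 0.220). Slc25a3, the phosphate carrier proper, differed by 0.01 and 0.09.

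Of the carriers of dicarboxylates, citrate and oxoglutarate, 0 of 4 were called. Slc25a21, an oxodicarboxylate carrier with values under the median of all, differed by -0.23 between times (limma adjusted p = 0.282), and Slc25a10, the dicarboxylate carrier, by 0.18 between genotypes (interval -0.02 to 0.37). Slc25a1, the citrate carrier that exports citrate for lipid synthesis, was singled out with its values in view. It was at 5.35, 6.37 and 6.43 (lowest, median and highest) at ZT0, at 4.94, 5.55 and 6.77 in wild type at ZT12, and at 7.68, 5.32, 6.25, 5.17 and 5.32 in the knockout. The group ranges overlapped throughout, and knockout replicate 1 was highest of all. Its within-group SD of 0.71 was the highest in the family, followed by 0.31 for Slc25a2, with a family median of 0.16 and 0.18 over all genes. The differences of -0.40 (SE 0.34) between times and 0.28 between genotypes were not called (limma adjusted p = 0.706 and 0.852).

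Slc25a1 varied with both adipocyte and atrial markers. The mean of 9 of 10 listed adipocyte genes ran from 5.14 to 6.31 at ZT0, from 4.87 to 6.93 in wild type at ZT12 and from 5.04 to 6.94 in the knockout, and Pearson's r with Slc25a1 was 0.91 (Spearman's rho 0.84) over the 19 hearts. It was 0.93 after the group means were removed and 0.86 over the 17 hearts left when knockout replicate 1 and wild-type ZT12 replicate 7, the 2 farthest from the median of the marker mean, were left out. With the atrial marker mean, r was 0.65 (rho 0.81), and 0.78 after the group means were removed. With Ucp1, the uncoupling protein of brown fat, r was 0.92 (rho 0.82), and Ucp1 ran from 2.76 to 8.39 over the hearts. The part of fat cells or atrial muscle in the values of Slc25a1 was not tested. In whole hearts, fewer cells of a type and less RNA per cell cannot be told apart. The points share 1 RMA normalization, and these correlations are descriptions.

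**Figure D4:**
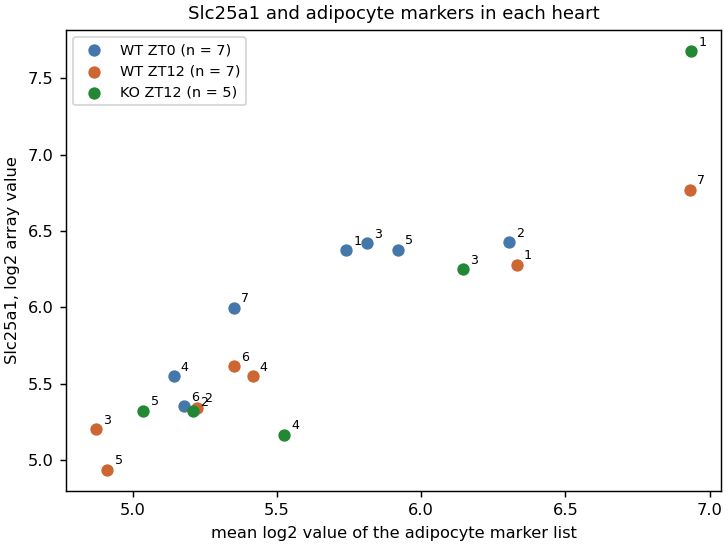
Slc25a1 (log2 array value, vertical) against the mean log2 value of 9 adipocyte marker genes (horizontal) in each of 19 hearts, with replicate numbers beside the points. The highest points are knockout replicate 1 at 7.68 and wild-type ZT12 replicate 7 at 6.77, which also have the highest marker means, 6.94 and 6.93.

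Of the amino acid carriers, 0 of 9 were called. Slc25a13, an aspartate/glutamate carrier of the malate-aspartate shuttle, differed by 0.21 between times (limma adjusted p = 0.212) and -0.15 between genotypes (adjusted p = 0.530). Slc25a22, a glutamate carrier, was 0.38 higher in the knockout at ZT12 but not called (SE 0.12; adjusted p = 0.179). The other shuttle carrier, Slc25a12, differed by 0.04 and 0.07. The iron carriers, called mitoferrins, had 0 of 2 called, with Slc25a28 at -0.17 between times (adjusted p = 0.249) and 0.18 between genotypes (adjusted p = 0.289).

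The glutathione carriers also had 0 of 2 called. Slc25a39 differed by -0.17 and 0.27 (limma adjusted p = 0.362 and 0.150), and Slc25a40 by 0.21 between times (adjusted p = 0.390). Among uncoupling-type carriers, Slc25a14 differed by 0.13 between times and Slc25a27 by 0.13 between genotypes (adjusted p = 0.566). The outer membrane protein Slc25a46, which acts in mitochondrial shape, differed by -0.07 and 0.03. The other 5 genes of uncertain substrate besides Slc25a34 had 0 calls, with Slc25a35 at 0.11 between times (adjusted p = 0.639).

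**Figure D5:**
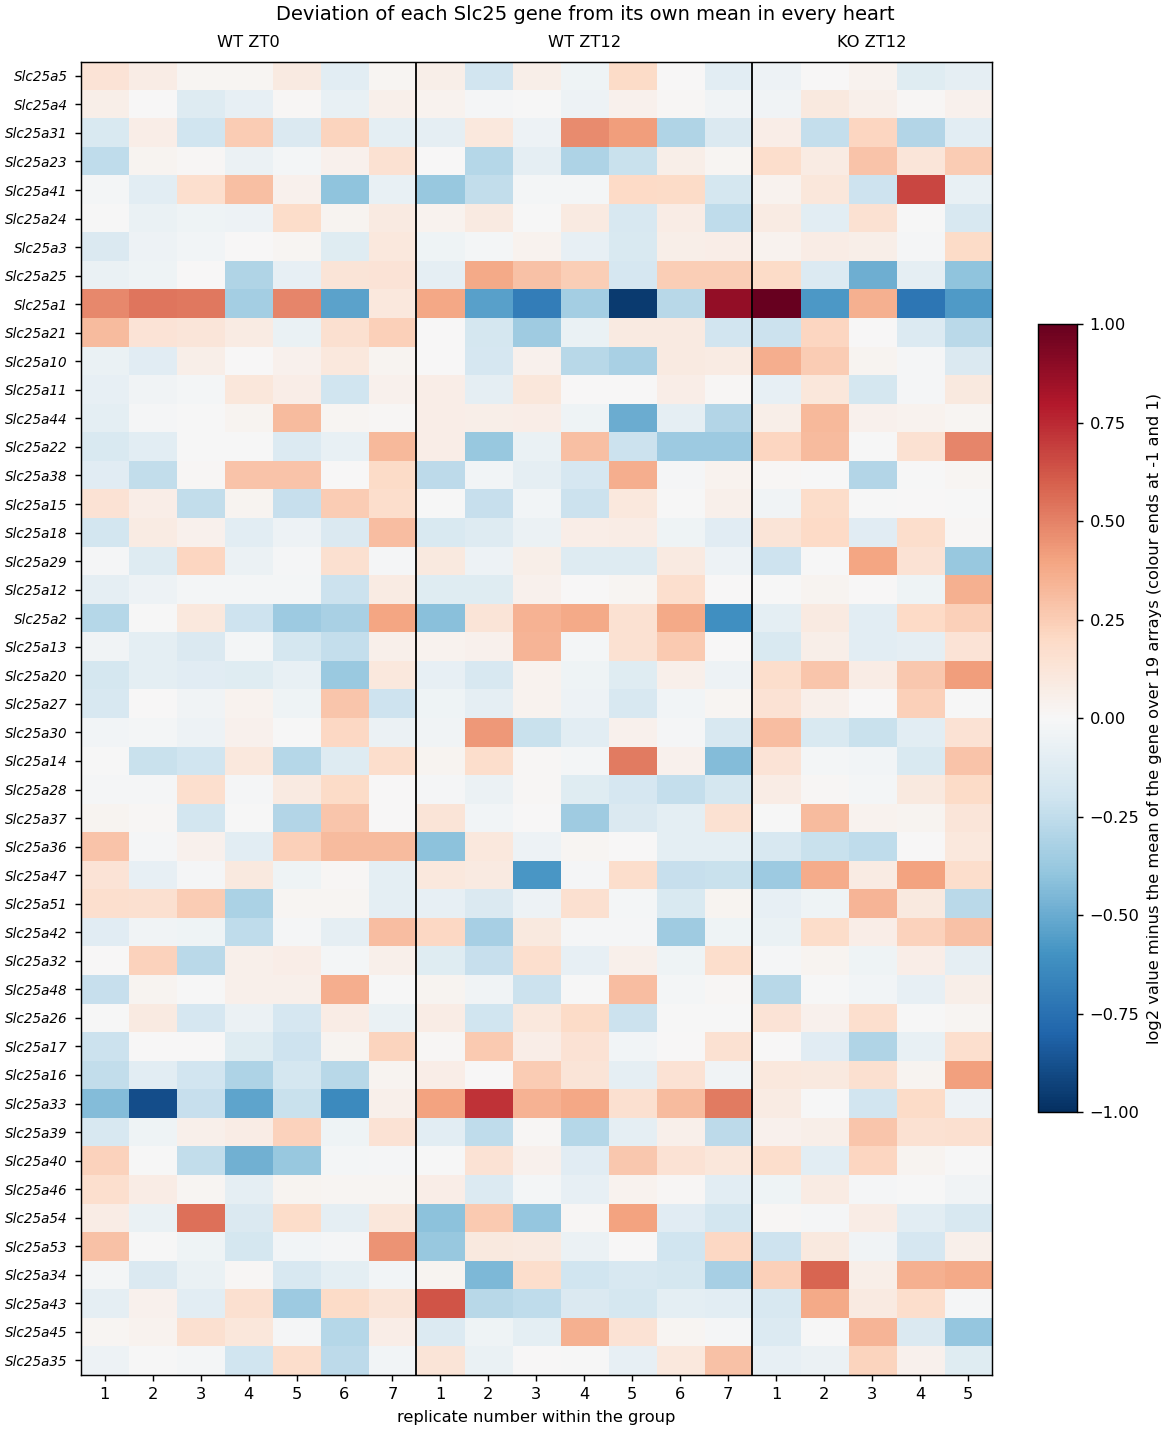
Each of the 46 carriers (rows, by substrate group) in each of 19 hearts (columns, by group and replicate) as the log2 value minus the gene's mean over all hearts; the colour scale ends at -1 and 1, so values beyond are shown at the end colour. Slc25a33 is low at ZT0 and high in wild type at ZT12, and Slc25a1 has the widest swings within groups.

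Correlations between carriers within groups were centred near 0, with a few high pairs. Over the 1035 pairs, the correlation of deviations from the group means across 19 hearts ran from -0.69 (Slc25a26 with Slc25a38) to 0.81, with a median of 0.01. The highest values among these pairs were those of Slc25a20 with the oxoglutarate carrier Slc25a11 at 0.81 and with Slc25a12 at 0.80. Slc25a15 with Slc25a37 followed at 0.74, and Slc25a20 with Slc25a3 at 0.71. Genes most like Slc25a34 over the 19 hearts, by Pearson's r, were Gstm7 at 0.91, Rit1 and Jmjd8 at 0.83, Heatr5b at 0.82 and Agpat3 at 0.81. Within the family they were Slc25a20 at 0.74, Slc25a22 at 0.72, Slc25a42 at 0.63, Slc25a23 at 0.55 and Slc25a39 at 0.54. After the group means were removed, these carriers were at 0.42, 0.51, 0.49, -0.008 and 0.16 in the same order. Gstm7, Rit1, Jmjd8, Heatr5b and Agpat3 were then at 0.76, 0.58, 0.56, 0.41 and 0.40. These correlations are descriptions over hearts that share group differences.

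Genes related to the carriers were given by 5 lists, of which 41 of 46 genes were measured. They were the TIM22 import machinery that inserts carriers, other proteins of the carrier fold and other inner membrane transport. Further lists held the outer membrane channel and regulators of mitochondrial genes. Over all 22180 genes, limma called 250 between times, 162 between genotypes and 298 against ZT0, so 0 calls among 41 say little. It called 0 of the 41 listed genes in each comparison, and the most that any other setting called was 1. At an unadjusted p under 0.05 there were 3, 6 and 7 of them (7.32%, 14.6% and 17.1%), beside 11.5%, 10.6% and 12.6% of all genes. The smallest adjusted p in any comparison was 0.180, for Mtch2 between times of day, at a difference of 0.20 (SE 0.064). In the knockout at ZT12, Ucp3, the uncoupling protein of muscle, was 0.60 higher (SE 0.21; adjusted p = 0.245), and its values overlapped those of wild type. Esrra, which encodes a receptor driving mitochondrial genes, differed by -0.26 between times (adjusted p = 0.229) and 0.29 between genotypes (adjusted p = 0.237). Timm22, the channel that inserts carriers, differed by 0.16 between times (adjusted p = 0.611). Other smallest-p genes of a list between times were Slc8b1 at 0.11 and Vdac2 at 0.07 (limma adjusted p = 0.523 and 0.689). Between genotypes they were Timm29 at 0.21, Sfxn5 at 0.23 and Vdac3 at 0.07 (adjusted p = 0.399, 0.345 and 0.696). Against ZT0 they were Timm13 at 0.13, Sfxn3 at -0.24 and Vdac3 at 0.13 (adjusted p = 0.528, 0.233 and 0.308). Nrf1 at -0.16 and Ucp3 at 0.56 completed them (adjusted p = 0.350 and 0.230).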

How the data were processed

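The deposited probe set values were made by the authors with RMA, per the submitters' processing notes, which corrects background, normalizes quantiles and summarises probes; its version is not given in the sources used here. The authors' deposited values were taken to be RMA summaries on a log2 scale, since they ran from 0.21 to 12.88. Extracts were 300 ng of total RNA made into biotinylated DNA, per the labels' protocols.

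Probe sets were named from the platform annotation, which can be old. Of 41345, 23521 listed 1 gene, 1814 several and 16010 none; the 1082 genes with several probe sets took the highest mean. The 46 carriers all matched RefSeq symbols of GRCm38.p6 by Entrez identifier, and 1 probe set that also lists another gene was left out. Promoters came from RefSeq.

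The groups entered a limma 3.58.1 model (R 4.3.3) with 1 mean per group over 19 arrays, eBayes without trend, two-sided, Benjamini-Hochberg over 22180 genes. The analysis was tested on simulated data. Each p-value sets a difference of group means against the spread between hearts, estimated over all groups together. The number of arrays limits the precision. All 19 columns were used.

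Named genes were Slc25a34, every called carrier, the smallest p of each substrate group between times and between genotypes, the smallest p of each related list, and the genes most like Slc25a34; Slc25a1 and other carriers outside that rule were picked with their values in view. The members and lists were chosen with earlier results of these data known. Alternatives covered array centring, a repeated quantile normalization, dim genes, averaged probe sets, a trend, only the arrays compared, the replicate number as a block, marker covariates and each heart left out; leaving out the 4 hearts low in atrial markers was added after seeing the data.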

Additional observations from a re-analysis of the deposited data

Results flagged for a closer look

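In 174 groups of hearts, from 58 genes (the 46 carriers and 12 related genes), a heart was marked when its gap to the nearest other heart, over the group's range, passed Dixon's 95% critical value. This marked 16 groups, and chance alone marks about 1 in 20, or 8.7 here. In wild-type ZT0 replicate 7, Slc25a22 was the highest of its group at 5.59, with the nearest other heart at 5.26 and the opposite end at 5.11. Slc25a46 stood apart in knockout replicate 2, highest at 8.92 with the nearest at 8.83 and the far end at 8.79. For Slc25a12, knockout replicate 5 was highest at 10.02, while the others ran from 9.69 to 9.62. In knockout replicate 2, Slc25a15 was the highest of its group at 5.69, with the nearest other heart at 5.51 and the opposite end at 5.46. Slc25a30 stood apart in wild-type ZT0 replicate 6, highest at 5.24 with the nearest at 5.08 and the far end at 4.97. For Slc25a30, wild-type ZT12 replicate 2 was highest at 5.47, while the others ran from 5.07 to 4.80. In wild-type ZT12 replicate 1, Slc25a36 was the lowest of its group at 6.35, with the nearest other heart at 6.67 and the opposite end at 6.87. Slc25a38 stood apart in knockout replicate 3, lowest at 5.16 with the nearest at 5.45 and the far end at 5.47. For Slc25a42, wild-type ZT0 replicate 7 was highest at 6.99, while the others ran from 6.67 to 6.43. In wild-type ZT12 replicate 1, Slc25a43 was the highest of its group at 3.01, with the nearest other heart at 2.29 and the opposite end at 2.11. Slc25a44 stood apart in wild-type ZT0 replicate 5, highest at 5.33 with the nearest at 5.04 and the far end at 4.91. For Slc25a44, knockout replicate 2 was highest at 5.34, while the others ran from 5.07 to 5.03. In wild-type ZT0 replicate 6, Slc25a45 was the lowest of its group at 3.56, with the nearest other heart at 3.84 and the opposite end at 4.01. Slc8b1 stood apart in knockout replicate 1, lowest at 5.28 with the nearest at 5.49 and the far end at 5.55. For Vdac2, knockout replicate 5 was highest at 9.46, while the others ran from 9.27 to 9.21. In wild-type ZT12 replicate 6, Nrf1 was the lowest of its group at 4.74, with the nearest other heart at 4.97 and the opposite end at 5.08. Effects in different groups under one contrast could not be set against each other, since no knockout at ZT0 was measured.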

How the results depend on the processing

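The rise of Slc25a33 between times held in every one of the 11 other settings and with each of 14 hearts left out (adjusted p 6.46e-05 to 0.00101 in the latter, 4.78e-05 to 0.00240 in the former). No call reversed, and of 1269 values for the 18 carriers named by rule 1222 kept their call, 42 lost it and 5 gained one; 1967 of 1967 for the other 28 carriers kept theirs. With a heart left out, 1 carrier was called between times, 0 to 1 between genotypes and 0 to 3 in the knockout against ZT0; over all genes 185 to 251, 94 to 161 and 171 to 311 were called, and of the 41 related genes 0 in each. All-gene counts in the main analysis were 250, 162 and 298. Leaving out dim genes gave 384, 264 and 460 calls over all genes, and 3 carriers between genotypes (Slc25a20, Slc25a23 and Slc25a34). A repeated quantile normalization gave 2 carriers against ZT0 (Slc25a16 and Slc25a20), with Slc25a34 at 0.36 (limma adjusted p = 0.0904). A trend gave 267 between genotypes with 3 carriers, and 1 related gene against ZT0 (Vdac3). With only the arrays compared, there were 72 between genotypes with 0 carriers (Slc25a34 at 0.48, limma adjusted p = 0.104), and 187 against ZT0 with 1 (Slc25a34). The atrial mean as a covariate gave 160 against ZT0 with 0 carriers and 1 related gene (Sfxn1), and 0 carriers between genotypes. Bmp10, an atrial marker, as a covariate gave 134 against ZT0 with 0 carriers. Between genotypes it gave 114 with 1 carrier, Slc25a34 (0.44, limma adjusted p = 0.0437). Without the 4 hearts low in atrial markers, 19 and 84 genes were called between genotypes and against ZT0, with 0 carriers in both. The added alternative was chosen after seeing the data.

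Replicate numbers did not pair the hearts, as the correlations of same-numbered hearts' deviations lay between -0.072 and 0.074. With the replicate number as a block, 88 genes between genotypes and 182 against ZT0 were called, with 0 carriers in each; Slc25a34 then differed by 0.46 between genotypes (limma adjusted p = 0.119) and by 0.38 from ZT0 (adjusted p = 0.173). The cause of these changes was not tested. Limma's calls of Slc25a34 against ZT0 were lost in 11 of 12 analyses that left out a heart (adjusted p up to 0.122), those of Slc25a20 without knockout replicate 4 or 5 (0.0501 and 0.0611), and those of Slc25a16 without wild-type ZT0 replicates 1, 3, 4, 5 or 6 or knockout replicates 3 or 5 (up to 0.109).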
